A study of Homo sapiens with 3 samples.

Results

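Transcripts of 9 B cell surface antigens were measured by RNA sequencing in lymphoma cells treated with MZ1. The genes are MS4A1, CD22, CD37, CD38, CD52, CD72, CD47, CD48 and CD53, chosen by name as surface proteins that antibodies or engineered cells are directed against in B cell disease or that sit beside such targets on B cells. All 9 were among the 15808 genes of the count table. The cells were OCI-Ly10, an established human lymphoma line (diffuse large B cell type, ABC subtype), and all 3 libraries (replicates 1, 2 and 3) came from cells labelled as treated with MZ1 for 6 h, at a dose not given in the sources used here. MZ1 is a bifunctional molecule that brings BET bromodomain proteins to the VHL ubiquitin ligase for degradation. Untreated cells were not analysed here, so the values are levels in treated cells of 1 line, and no effect of MZ1 was estimated. Whether the replicates were separate cultures is not stated in the labels. The p-values below thus speak only of the spread among these 3 samples, which may be technical.

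Surface antigens of B cells fall into a few protein families. MS4A1 encodes CD20, a membrane-spanning protein bound by rituximab. CD22 and CD72 are inhibitory coreceptors of the B cell receptor whose cytoplasmic tails carry tyrosine motifs that recruit the phosphatase SHP-1, and CD22 is the target of inotuzumab ozogamicin. CD37 and CD53 are tetraspanins, which organise other proteins in the membrane of leukocytes. CD52, the target of alemtuzumab, and CD48, a ligand of the SLAM family, are held in the membrane by a glycosylphosphatidylinositol (GPI) anchor. CD47 binds SIRPA on macrophages and restrains phagocytosis, and CD38, the target of daratumumab, is an ectoenzyme that consumes NAD.

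The libraries differed in depth, with 5474462, 1441246 and 1314812 counts in replicates 1, 2 and 3. Levels are given as CPM, counts per 1e6 of the TMM-scaled library size, where 1 count was worth 0.20, 0.629 and 0.767 CPM. Markers of B cells were present, with 9 of 9 at 1 CPM or more in every library and summed levels of 1373 to 2212 CPM (MS4A1 and CD22 are on this list). Marker lists of other cell types had lower sums, while MS4A1 alone gave 848, 625 and 739 CPM of the B cell sum in replicates 1, 2 and 3. The T cell list summed to 5.03 to 13.6 CPM over the 3 of its 9 genes that were measured, the myeloid list to 45.3 to 62.8 CPM over 5 of 9, and the epithelial and stromal list to 27.7 to 61.8 CPM over 3 of 8. Single genes of these lists reached the level of some B cell markers. KRT8 had 45.8, 17.6 and 33.8 CPM and the myeloid gene MPO 31.8, 20.1 and 22.2 CPM, where EBF1 had 21.2, 34.6 and 28.4 CPM. None of the 6 listed natural killer cell genes and none of the 5 erythroid genes were among the genes analysed here. In bulk RNA, fewer cells of a type and less RNA per cell cannot be told apart.

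All 9 antigen genes reached 1 CPM in every library, a level reached by 68% of the genes in the table. Differences between libraries were tested gene by gene (chi-square, equal expression as the null) where the mean count was 10 or more. Of the antigens 8 passed this filter (CD38 did not, at a mean of 9.33 counts), and 8 of 8 varied at an adjusted p below 0.05, against 67.2% of the 10016 genes tested. The share over all genes moves with count depth. With the filter at a mean count of 50, which the same 8 antigens pass, it was 81.1%. Replicate 1 was the highest library for 7 of 9 antigens, against 43.8% of tested genes, and replicate 2 the lowest for 7 of 9, against 40.2%. Replicate 1 was the lowest for 0 of 9 antigens (32.1% of tested genes) and replicate 2 the highest for 1, CD47 (28.7%). Replicate 3 was the highest for CD38 (27.4%) and the lowest for CD22 and CD47 (27.7%). The median ratio of the highest to the lowest library was 4.84 over the 9 antigens and 2.04 over the 9881 tested genes with a count in each library. The most stable of the abundant antigens was MS4A1, and the widest ranges belonged to CD48 and CD22.

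**Figure D1:**
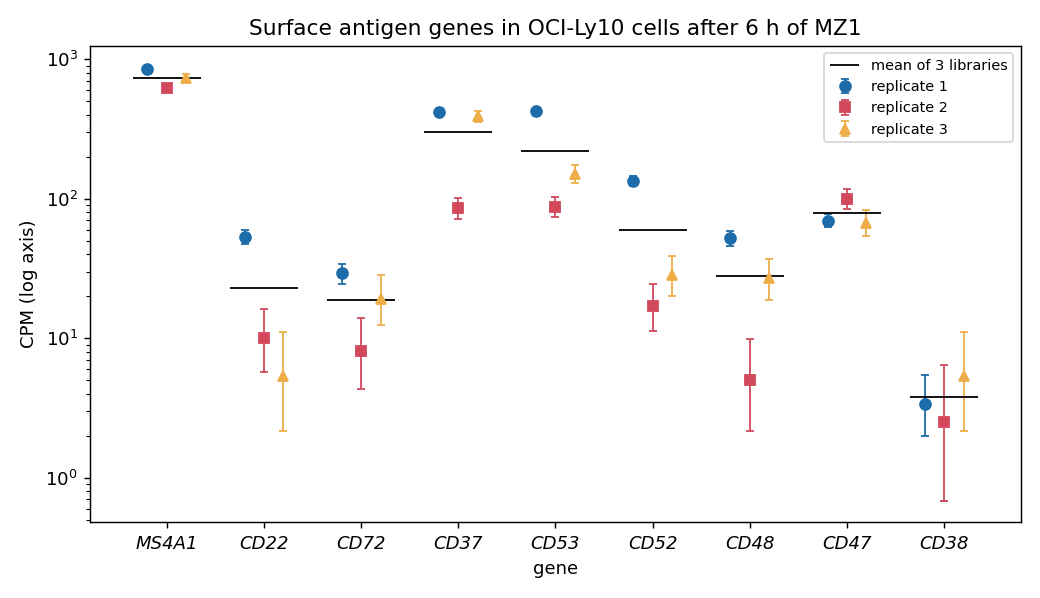
CPM (log axis) of the 9 antigen genes in each library; points are libraries with exact 95% counting intervals, and black lines are means of 3. MS4A1 sits between 625 and 848 CPM in every library, while CD48 spans 5.03 to 52.4 CPM and CD22 5.37 to 53.4 CPM.

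MS4A1 (ENSG00000156738.16, chromosome 11, 60455752 to 60470760, plus strand, GRCh38) had 848, 625 and 739 CPM in replicates 1, 2 and 3, from 4243, 994 and 963 counts. The mean was 737 ± 112 CPM (SD, n = 3), and the coefficient of variation of 15.2% was the smallest of the 9 antigens. The libraries nevertheless differed beyond counting noise (chi-square test, adjusted p = 1.80e-17), by 1.36-fold from highest to lowest. Counting error at these depths is narrow, with an exact 95% interval of 823 to 874 CPM in replicate 1 and 586 to 665 CPM in replicate 2. Replicate 3 lay above replicate 2 by 0.24 on the log2 scale (adjusted p = 0.00124), but with scaling factors estimated from these libraries alone the difference was 0.15 and the adjusted p 0.0641.

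CD22 (ENSG00000012124.13, chromosome 19, 35319261 to 35347355, plus strand) had 53.4, 10.1 and 5.37 CPM, from 267, 16 and 7 counts. Replicate 1 stood above both other libraries, and the intervals of replicate 2 (5.75 to 16.3 CPM) and replicate 3 (2.16 to 11.1 CPM) overlapped. The level in replicate 1 was 9.94 times that in replicate 3, with a counting interval of 4.76 to 24.97, and 5.31 times that in replicate 2 (3.21 to 9.42). The chi-square test over the 3 libraries gave an adjusted p of 3.19e-22, and 0.231 without replicate 1. Its mean was 22.9 ± 26.5 CPM (SD, n = 3), an SD larger than the mean.

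CD72 (ENSG00000137101.11, chromosome 9, 35609533 to 35646810, minus strand), the other inhibitory coreceptor, had 29.2, 8.17 and 19.2 CPM, from 146, 13 and 25 counts. The mean was 18.8 ± 10.5 CPM (SD, n = 3), and the libraries varied (adjusted p = 1.74e-05). Replicate 2 was the lowest, below replicate 1 by 1.78 on the log2 scale (adjusted p = 9.90e-06), whereas replicate 3 did not differ from replicate 1 past the threshold (-0.59, adjusted p = 0.0986). Replicate 3 lay above replicate 2 by 1.18 (adjusted p = 0.0329), which became 1.09 with an adjusted p of 0.0525 when replicate 1 was left out of the scaling. CD72 exons share 509 bases with TESK1 on the opposite strand, which had 33, 14 and 13 counts, and without a known strand setting reads of the overlap cannot be assigned.

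The tetraspanin genes CD37 and CD53 followed the same order, highest in replicate 1 and lowest in replicate 2. They differed in replicate 3, which was close to replicate 1 only for CD37. CD37 (ENSG00000104894.10, chromosome 19, 49335171 to 49343335, plus strand) had 422, 86.1 and 391 CPM, from 2109, 137 and 510 counts, with a mean of 299.7 ± 186 CPM (SD, n = 3). Replicates 1 and 3 did not differ past the threshold (adjusted p = 0.214, ratio of replicate 3 to 1 of 0.928, interval 0.841 to 1.02), and replicate 2 was lower than replicate 1 by 2.29 on the log2 scale (adjusted p = 4.75e-87). Without replicate 2 only the comparison of replicates 1 and 3 given above remained, so the call of CD37 was lost. Its exons share 319 bases with TEAD2 and 132 with AC011450.1 on the opposite strand, and both partners had at most 13 counts in a library.

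CD53 (ENSG00000143119.11, chromosome 1, 110871188 to 110899928, plus strand) had 426, 88.0 and 151 CPM, from 2129, 140 and 197 counts, with a mean of 222 ± 179.5 CPM (SD, n = 3). Each library differed from each other one. Replicate 2 lay below replicate 1 by a log2 difference of -2.27 (adjusted p = 2.97e-87), replicate 3 below replicate 1 by -1.49 (adjusted p = 2.73e-46) and replicate 3 above replicate 2 by 0.78 (adjusted p = 7.91e-06). No exon of CD53 overlaps another gene.

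Both GPI-anchored antigens were highest in replicate 1. CD52 (ENSG00000169442.7, chromosome 1, 26317957 to 26320523, plus strand) encodes a very short surface peptide and has the shortest exons of the 9 genes, 935 bases in all. It had 135, 17.0 and 28.4 CPM, from 673, 27 and 37 counts, with a mean of 59.97 ± 64.8 CPM (SD, n = 3) and an adjusted p of 1.60e-53. Replicates 2 and 3 were not told apart (ratio of replicate 3 to 2 of 1.67, interval 0.991 to 2.86, adjusted p = 0.0997). Only 25 bases of its exons overlap an opposite-strand gene, UBXN11.

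CD48 (ENSG00000117091.8, chromosome 1, 160678746 to 160711851, minus strand) had 52.4, 5.03 and 26.8 CPM, from 262, 8 and 35 counts. The 3 intervals did not overlap, at 46.2 to 59.1, 2.17 to 9.91 and 18.7 to 37.3 CPM. The mean was 28.1 ± 23.7 CPM (SD, n = 3), and replicate 1 was 10.4 times replicate 2, with a counting interval of 5.21 to 24.4 (adjusted p = 4.03e-15). The opposite-strand gene AL121985.1, which shares 976 bases of exon, had 0, 3 and 13 counts.

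CD47 (ENSG00000196776.13, chromosome 3, 108043094 to 108091862, minus strand) was the only antigen that was highest in replicate 2. It had 69.8, 99.9 and 67.5 CPM, from 349, 159 and 88 counts, with a mean of 79.1 ± 18.1 CPM (SD, n = 3). Replicates 1 and 3 did not differ past the threshold (ratio 0.967, interval 0.757 to 1.23, adjusted p = 0.847), and replicate 2 was 1.43 times replicate 1 (interval 1.18 to 1.73, adjusted p = 4.73e-04). Without replicate 2 only that comparison of replicates 1 and 3 remained, so the call of CD47 was lost.

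CD38 (ENSG00000004468.11, chromosome 4, 15778275 to 15853230, plus strand) had 3.40, 2.51 and 5.37 CPM, from 17, 4 and 7 counts, with a mean of 3.76 ± 1.46 CPM (SD, n = 3). The intervals of all 3 libraries overlapped, at 1.98 to 5.44, 0.685 to 6.44 and 2.16 to 11.1 CPM. With no filter on low counts the adjusted p was 0.514, so no difference was detectable at this depth. The ratio of replicate 2 to 1 had an interval of 0.181 to 2.27, and that of replicate 3 to 1 one of 0.554 to 4.01.

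By pair of libraries, the chi-square test called 7 of 9 antigens lower in replicate 2 than in replicate 1 and 1 higher (CD47) at an adjusted p below 0.05, while it called 32.8% of 10488 genes lower and 23.3% higher (56.2% in either direction). CD38, also lower, was not called, so 8 of 9 were lower in value. Replicate 3 against replicate 1 gave 5 of 9 called lower and 0 called higher, against 25.1% and 20.2% of 10388 genes (45.2% in either direction). In value 8 of 9 were lower there and CD38 was higher, by 0.59. Replicate 3 against replicate 2 gave 5 of 8 called higher and 1 called lower (CD47), against 21.1% and 12.7% of 8447 genes (33.8% in either direction). CD22, at -0.85, was lower there without passing the threshold. The median log2 difference of the 9 antigens was -2.27 between replicates 2 and 1, where all tested genes had -0.18. Between replicates 3 and 1 it was -0.59, where all tested genes had -0.13.

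Base composition and transcript length moved with the same library differences. Among genes of at least 10 CPM in 8 equal bins of GC content, the median log2 difference of replicate 2 minus 1 ran from 0.32 in the most AT-rich to -1.37 in the most GC-rich bin. In 8 bins of longest transcript it ran from -0.84 in the shortest to 0.34 in the longest. CD37, at 58.5% GC, lies in the most GC-rich bin, and CD52 and CD53, at 581 and 1569 bases, lie in the shortest. CD47, the antigen highest in replicate 2, has 38.4% GC and a longest transcript of 6796 bases. After the median of the own GC bin was subtracted, the difference of replicate 2 minus 1 was -0.92 for CD37, -1.57 for CD22, -0.995 for CD72, -2.27 for CD53, -2.62 for CD52 and -3.47 for CD48. It was 0.19 for CD47, down from 0.52, -0.76 for MS4A1, from -0.44, and -0.58 for CD38, from -0.37. After the median of the own length bin was subtracted it was -2.12, -2.19, -1.14, -1.42, -2.11 and -2.63 for the same 6 genes in the same order, and 0.38 for CD47, -0.28 for MS4A1 and -0.30 for CD38. These subtractions treat GC and length separately, and their joint part in the differences was not tested.

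**Figure D2:**
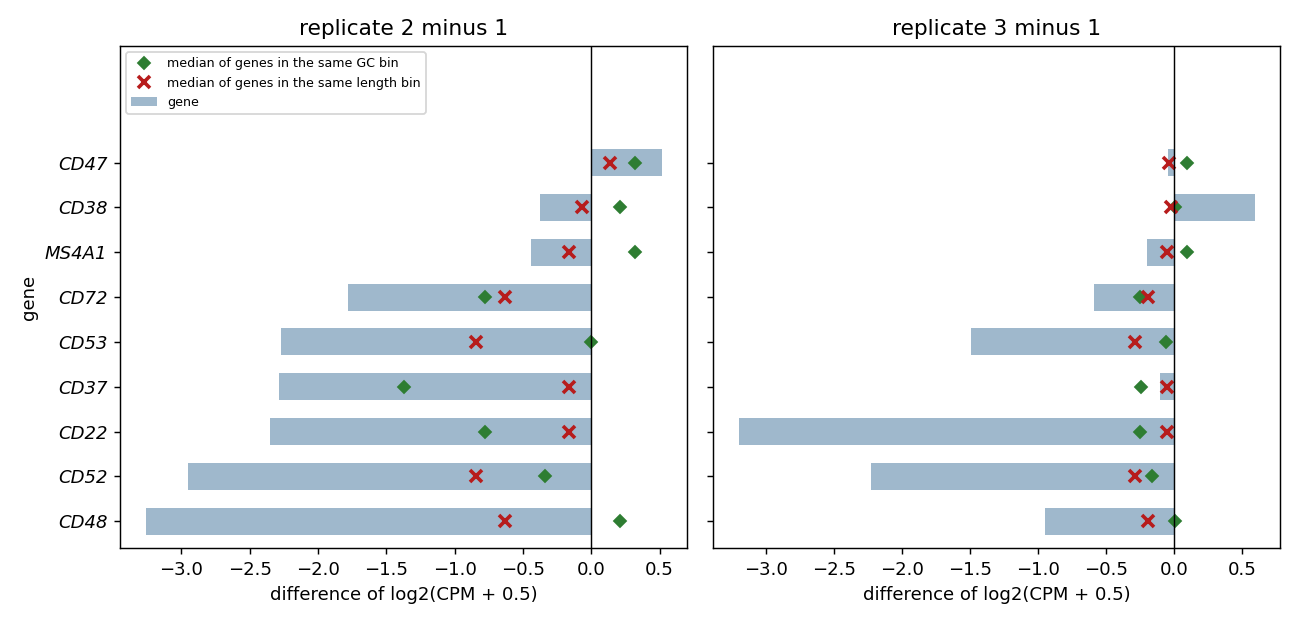
Difference of log2(CPM + 0.5) against replicate 1 for each antigen gene (bars), for replicate 2 on the left and replicate 3 on the right, with the median difference of genes in the same GC bin (diamonds) and the same transcript length bin (crosses). In the left panel 8 of 9 bars point down and CD47 points up, and the bars of CD48, CD52, CD22 and CD53 reach well past both medians.

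Levels of different genes were compared per kb of merged exons. MS4A1 led with 174, 128 and 152 CPM per kb (mean 151 ± 22.9, n = 3), rank 220 of 15668 genes with a known length. CD53 followed with 198, 40.9 and 70.2 CPM per kb (103 ± 83.4), CD37 with 101, 20.7 and 94.0 (72.0 ± 44.6) and CD52 with 144, 18.1 and 30.4 (64.1 ± 69.4). Among genes averaging 1 CPM or more, MS4A1 stood at percentile 98.3 and CD52, the lowest of these 4, at 95.9. CD47 had 8.48, 12.1 and 8.21 CPM per kb (9.61 ± 2.20), CD48 16.0, 1.54 and 8.20 (8.58 ± 7.24), CD72 8.62, 2.41 and 5.66 (5.57 ± 3.11) and CD22 8.67, 1.63 and 0.872 (3.72 ± 4.30). CD38 was last with 0.496, 0.367 and 0.783 CPM per kb (0.549 ± 0.213), at percentile 11.4.

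Between neighbours in this order, 2 steps held in every library and exceeded the SD of the within-library log2 ratio, taken with no pseudocount. CD52 lay above CD47 by 2.18 ± 1.77 and CD22 above CD38 by 2.15 ± 1.99 (SD, n = 3). In replicate 3 the step from CD22 to CD38 was only 0.15. Both genes had 7 counts there (5.37 CPM), so that step came only from their exon lengths, 6159 and 6855 bases. The other 6 neighbouring pairs changed order in 1 of 3 libraries each. In replicate 1 CD53 lay above MS4A1, and in replicate 3 CD37 lay above CD53. MS4A1 was first and CD38 last under merged exon length, longest transcript, median transcript length and no length correction alike, but CD52 passed CD37 and CD48 passed CD47 with the longest transcript, and CD37 passed CD53 with median transcript length or no correction. With no correction CD47, at 79.1 CPM, also passed CD52, at 59.97 CPM, which turns the first of the steps above, and CD22 passed CD72. With median transcript length CD22 passed both CD72 and CD48, and CD72 passed CD48.

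**Figure D3:**
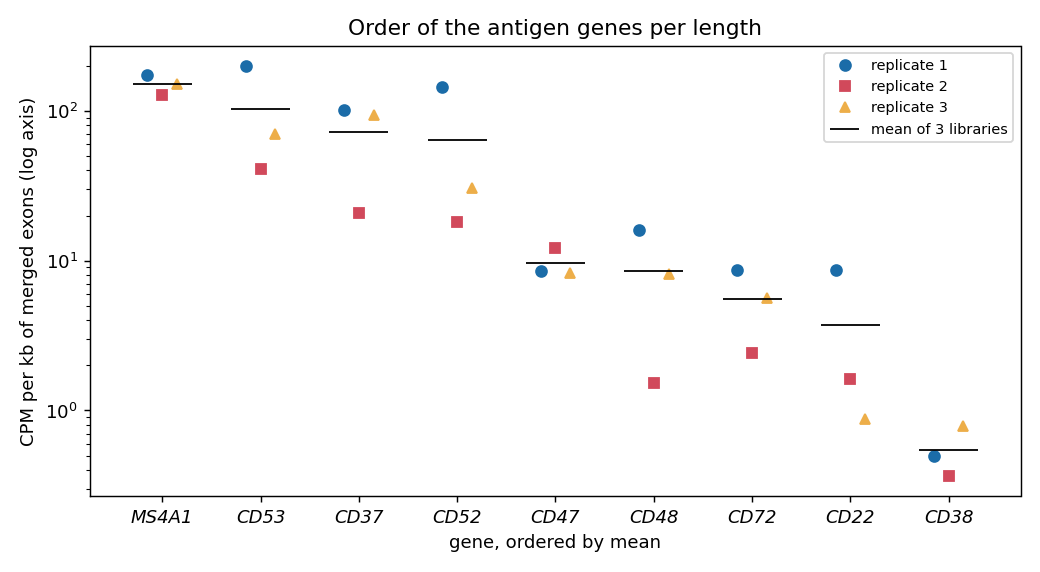
CPM per kb of merged exons (log axis) of each antigen gene, ordered by the mean (black line), with 1 point per library. MS4A1, CD53, CD37 and CD52 form an upper group between 18.1 and 198 CPM per kb, and CD38 lies under 1 CPM per kb in every library.

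The antigens together took 0.186% of the counts in replicate 1 (exact 95% interval 0.183 to 0.190%), 0.104% in replicate 2 (0.0987 to 0.109%) and 0.142% in replicate 3 (0.136 to 0.149%). Within the summed CPM per kb of the 9 genes, MS4A1 held 26.4%, 56.7% and 41.0% in replicates 1, 2 and 3. CD53 held 30.0%, 18.1% and 19.0%, and CD52 21.8%, 8.03% and 8.21%. CD37 held 15.4%, 9.15% and 25.4%. The share of MS4A1 was highest in replicate 2, where it exceeded that of the other 8 genes together.

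Pairs with a shared role were compared within libraries as log2 ratios per kb (pseudocount 0.5 CPM). The exact permutation test flipped signs, was two-sided and adjusted over 5 pairs, and its smallest possible p with 3 libraries is 0.25. MS4A1 lay above CD22 in 3 of 3 libraries by 5.95 ± 1.52 (SD, n = 3; exact permutation p = 0.25, adjusted 0.417), a 61.9-fold ratio that ran from 4.32 in replicate 1 to 7.31 in replicate 3 on the log2 scale. CD48 lay below CD52 in 3 of 3 libraries, with a ratio of -2.84 ± 0.84 (exact permutation p = 0.25). CD22 lay below CD72 by a ratio of -1.06 ± 1.37 (exact permutation p = 0.25), but in replicate 1 the ratio was -0.0033. CD37 and CD53 had a ratio of -0.51 ± 0.80 with opposite sign in replicate 3 (exact permutation p = 0.50), and CD47 and CD48 one of 0.64 ± 1.97 (exact permutation p = 1). No pair could pass 0.05 in this design.

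Promoter sequences from RefSeq (GRCh38.p14, 250 bases before to 50 after the annotated start) matched 7 antigens by symbol, all but MS4A1 and CD37. The windows of CD47 and of CD52 and CD53, which had another library pattern, are shown in lower case with matches on either strand in capitals. Whether promoter sequence relates to library pattern was not tested. The motifs searched were the octamer ATTTGCAT bound by OCT factors, the ETS core GAGGAA, the GC box GGGCGG and the TATA sequence TATAAA.
CD47 promoter, chr3:108090982-108091281, minus strand, GC boxes in capitals: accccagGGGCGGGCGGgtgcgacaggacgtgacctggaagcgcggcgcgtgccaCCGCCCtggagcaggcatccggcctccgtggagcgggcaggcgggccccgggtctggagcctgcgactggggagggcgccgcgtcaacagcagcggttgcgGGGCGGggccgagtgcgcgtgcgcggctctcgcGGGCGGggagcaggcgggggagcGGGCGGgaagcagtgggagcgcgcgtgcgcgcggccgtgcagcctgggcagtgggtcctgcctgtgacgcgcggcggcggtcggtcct
CD53 promoter of the first start, chr1:110870960-110871259, plus strand, octamer in capitals: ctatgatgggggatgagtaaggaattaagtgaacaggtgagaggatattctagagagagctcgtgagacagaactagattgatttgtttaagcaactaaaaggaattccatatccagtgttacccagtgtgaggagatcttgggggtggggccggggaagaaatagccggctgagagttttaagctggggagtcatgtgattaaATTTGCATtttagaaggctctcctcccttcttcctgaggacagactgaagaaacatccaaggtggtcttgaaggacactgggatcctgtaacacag
CD52 promoter, chr1:26317708-26318007, plus strand, ETS core (reverse strand) in capitals: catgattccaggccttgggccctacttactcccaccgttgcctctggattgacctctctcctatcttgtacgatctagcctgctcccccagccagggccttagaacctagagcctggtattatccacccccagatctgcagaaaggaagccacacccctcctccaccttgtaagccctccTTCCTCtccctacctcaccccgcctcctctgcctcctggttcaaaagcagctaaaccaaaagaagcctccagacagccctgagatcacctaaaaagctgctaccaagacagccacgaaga

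The CD47 window held 45 CpG dinucleotides, more than 96.5% of the 35116 RefSeq windows of the same length, and 6 GC boxes, 2 of them overlapping. The CD53 window held 3 CpG and CD52 4, against a median of 14 over all windows. The octamer of CD53 starts at position -46 from the start and occurs in 1.77% of all windows. The ETS core of CD52 lies at position -70, and this core occurs in 27.9% of windows. CD72 held 2 ETS cores and the second start of CD53 another 2 with 1 GC box. The windows of CD22, CD38 and CD48 held none of the motifs searched, and no antigen window held the TATA sequence. Over all windows a GC box occurs in 45.0% and the TATA sequence in 11.5%. A match describes the sequence and does not show that a factor is bound.

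Proteins that act with the inhibitory coreceptors were well represented. Of 9 listed signalling and ligand genes of CD22 and CD72, 8 were measured and 8 of 8 varied between libraries (67.2% of all tested genes did). All 8 reached 1 CPM in every library, where 68% of the genes in the table did, a share that also applies to the lists below. PTPN6, which encodes the phosphatase SHP-1, had 334, 184 and 99.0 CPM, highest in replicate 1 as CD22 was. It was lowest in replicate 3, whereas replicates 2 and 3 of CD22 were not told apart (chi-square test, adjusted p = 0.285). LYN, the kinase that phosphorylates the tyrosine motifs, had 315, 209 and 202 CPM, and ST6GAL1, the sialyltransferase that makes the glycan bound by CD22, had 118, 74.2 and 71.3 CPM. SEMA4D, a ligand of CD72, had 16.8, 8.80 and 8.44 CPM. GRB2 and PTPN11 were the highest of the list per kb, at 121 ± 10.9 and 62.1 ± 15.5 CPM per kb (SD, n = 3). Of the 8 genes 5 were highest in replicate 1, and GRB2, PTPN11 and INPP5D were not. GRB2 had 557, 529 and 628 CPM and PTPN11 362, 561 and 384 CPM. INPP5D, named with its values known, had 116, 170 and 212 CPM, lowest in replicate 1.

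Among other Siglecs, the family of CD22, only SIGLEC10 was abundant. It had 159, 261 and 290 CPM and was lowest in replicate 1, whereas CD22 was highest there. Exons of SIGLEC10 overlap an opposite-strand gene, as do those of PTPN11, CD63, CD82, CALR, QPCTL, SIRPA and NAMPT. SIGLEC10 had 64.6 ± 18.8 CPM per kb against 3.72 ± 4.30 for CD22 (SD, n = 3). SIGLEC5 had 5, 11 and 5 counts and CD33 0, 1 and 0 counts. Of the MS4A family, 4 of 14 listed relatives were measured and the highest, MS4A7, had 6, 2 and 3 counts.

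Relatives of the tetraspanins and of CD48 gave a similar contrast of few high and many low genes. Of 16 tetraspanins measured, 9 reached 1 CPM in every library and 8 of 9 tested varied between libraries, against 67.2% of all tested genes. CD63 had 379, 130 and 271 CPM and CD82 164, 40.2 and 139.6 CPM, while TSPAN9 had 1, 0 and 0 counts. CD63 and CD82 were lowest in replicate 2, as CD37, CD53 and 40.2% of all tested genes were. At 54.7% and 59.0% GC, they lie in GC bins with a median log2 difference of -0.78 and -1.37 for replicate 2 minus 1. Whether tetraspanins share a pattern beyond that was not tested. Other tetraspanins, named with their values known, were lowest in replicate 1 and highest in replicate 2. TSPAN31 had 19.4, 87.4 and 77.5 CPM (adjusted p = 1.61e-37) and TSPAN3 70.8, 93.6 and 90.5 CPM (adjusted p = 0.00801), both with exons that overlap an opposite-strand gene. In the SLAM family only SLAMF7, the target of elotuzumab, was above 1 CPM in every library, with 64.8, 40.9 and 49.1 CPM. CD58 had 9, 2 and 0 counts and SLAMF6 1, 0 and 1 counts.

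The CD47 partner SIRPA, usually a receptor of myeloid cells, had 72.2, 43.4 and 52.9 CPM. Of 8 listed ligand and maturation genes of CD47, 5 were measured, 5 reached 1 CPM in every library and 4 of 4 tested varied, where 67.2% of all tested genes did. CALR, calreticulin, which can promote phagocytosis when exposed at the surface, had 788, 864 and 1260.4 CPM. QPCTL, the glutaminyl cyclase that modifies the SIRPA-binding end of CD47, had 13.6, 3.77 and 9.21 CPM, and its relative QPCT 18, 5 and 3 counts. Of the 10 measured genes of NAD metabolism and CD38 relatives, 8 reached 1 CPM in every library and 5 of 8 tested varied, near the 67.2% of all tested genes. PARP1, a nuclear consumer of NAD, had 736, 881 and 816 CPM and NAMPT, the enzyme of NAD salvage, 106, 269 and 108 CPM, while NT5E had 0, 3 and 0 counts.

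Complement regulators protect cells from antibody-directed lysis, and 3 of the 4 measured reached 1 CPM in every library. CD46 had 149, 106 and 107 CPM, CD59 70.0, 35.2 and 67.5 CPM and CD55 25.8, 13.2 and 23.8 CPM. CFI, the lowest, had 2, 8 and 0 counts. CD55 and CD59 are GPI-anchored, as CD48 and CD52 are. Of 26 measured genes of GPI anchor synthesis, 22 reached 1 CPM in every library. In this list 10 of 22 tested varied, where 67.2% of all tested genes did. That share moves with count depth, and rose to 81.1% when the filter was raised from 10 to 50 counts. The GPI list had median levels of only 11.7, 7.23 and 9.21 CPM in replicates 1, 2 and 3. No partner list was compared with genes of matched counts, so the lower share does not show that these genes were steadier. DPM1, a subunit of dolichol phosphate mannose synthase, had 62.2, 54.1 and 58.3 CPM, with no difference between libraries detected (adjusted p = 0.547). GPAA1, a subunit of the transamidase that attaches the anchor, had 40.6, 8.80 and 19.9 CPM. PIGM had 2, 0 and 0 counts, and PIGA, singled out after its values were seen, was at 0 counts in every library, for which the upper limits are 0.60, 1.89 and 2.30 CPM (3 counts per library, counting error only).

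**Figure D4:**
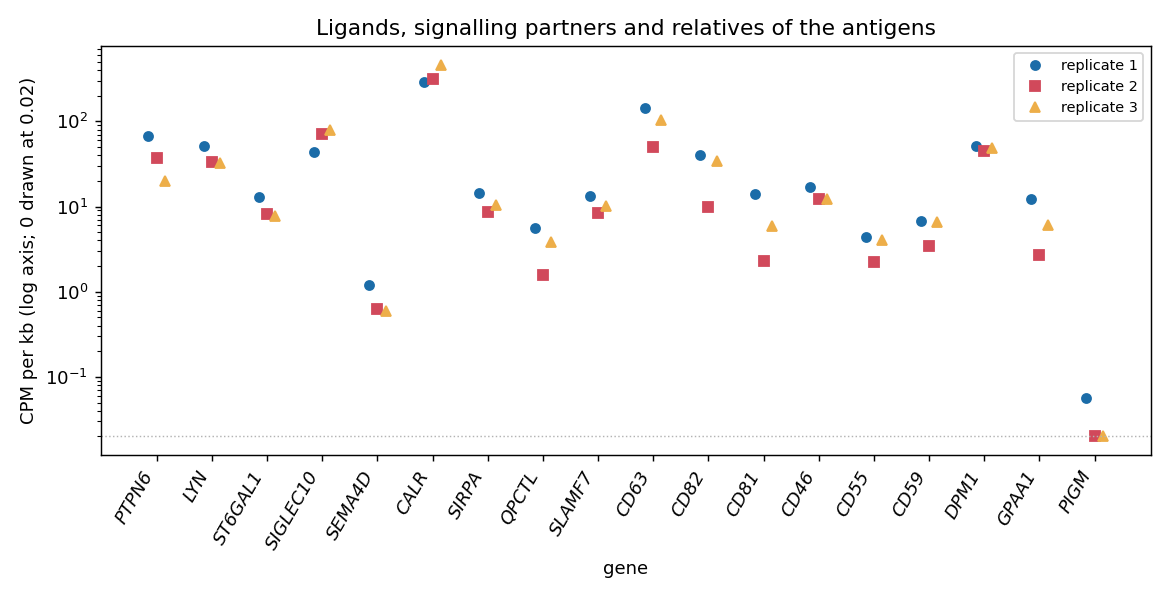
CPM per kb (log axis) of ligands, signalling partners and relatives of the antigens, with 1 point per library and 0 drawn at 0.02. CD63 and CD82 are lowest in replicate 2, SIGLEC10 is lowest in replicate 1 and PIGM is at 0 in replicates 2 and 3.

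Of 25 other B cell surface genes, all measured, 17 reached 1 CPM in every library and 16 of 19 tested varied between libraries, against 67.2% of all tested genes. CD74, the invariant chain of MHC class II, had 4439, 815 and 2085 CPM, lowest in replicate 2. CD79A, a signalling chain of the B cell receptor, had 437, 353 and 903 CPM, highest in replicate 3. TNFRSF17, which encodes the plasma cell antigen BCMA, had 2, 0 and 0 counts.

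For each antigen the nearest gene in library pattern was found by Euclidean distance of the 3 centred log2 values among 7493 genes (7494 for CD38) averaging 10 CPM or more. These were SLC6A13 for MS4A1 (distance 0.0018), AGO1 for CD47 (0.0040), RPL13A for CD38 (0.0072), TIMP2 for CD53 (0.026), WARS2 for CD72 (0.031), HS1BP3 for CD22 (0.042), RPLP0P6 for CD37 (0.053), ARPC1B for CD52 (0.069) and GPX4 for CD48 (0.077). With 3 libraries such matches are common, and 610 genes lay within 0.25 of MS4A1. CD22, CD48 and CD52 had fewer, with 8, 19 and 25 genes. The pattern of CD38 rests on 17, 4 and 7 counts with no difference between libraries detected, so its nearest gene has no meaning. Among the antigens themselves the closest patterns were those of CD52 and CD53, at a distance of 0.58.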

How the data were processed

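The authors deposited read counts per gene for 3 libraries. STAR and edgeR are named with hg38 per the submitters' processing notes; the sources used here give no versions, counting tool or strand setting. The deposited log2 CPM values carry an offset of 0.452 CPM and library constants of 0.663, 0.751 and 0.801 times the column totals, found by comparison with the counts, and were used only as an alternative. Counts were scaled with TMM factors (edgeR 4.0.16 in R 4.3.3). Levels are CPM, and differences are on the log2(CPM + 0.5) scale, where those of low genes come out too small. IDs without their version matched GENCODE release 29 for 15668 genes, which gave symbols, GRCh38 positions, exon lengths and GC content of the longest transcript; 140 IDs had no match and stayed in the totals. The chi-square test (Poisson, effective library sizes) with Benjamini-Hochberg adjustment over all genes compares libraries, not conditions. On simulated Poisson counts it called 6 of 9832 unchanged genes, 18 of 50 with a 1.5-fold change and 48 of 50 with a 4-fold change. Those counts follow the model that the test assumes, so they do not show its error rate on these libraries. Counting intervals are exact Poisson for CPM, exact binomial for ratios and Clopper-Pearson for shares, at 95%; they cover counting error only, and the labels name no molecular identifiers. Named genes are all 9 antigens, the 2 highest per kb and the lowest measured gene of each of 10 partner lists, and direct ligands, enzymes and signalling partners; BST1 and CD244 were not analysed here. Other genes were named after their values were seen. The antigens and lists were chosen with earlier results of these data known. Alternatives were DESeq2 1.42.0 size factors, column totals, the deposited values, other pseudocounts, filters and lengths, thinning to equal depth, GC bins, length bins (added after seeing the data) and leaving out each library.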

Additional observations from a re-analysis of the deposited data

How the results depend on the processing

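The number of antigens varying between libraries was 8 of 8 tested with DESeq2 size factors, column totals, a mean count of at least 50 and equal depth, where 67.0%, 67.6%, 81.1% and 63.0% of all genes varied. It was 8 of 9 with no filter, where 51.0% did, and ran from 4 to 8 when 1 library was left out. It was 4 of 8 tested without replicate 1 (CD37, CD47, CD48 and CD53), where 33.8% of all genes varied, 5 of 9 without replicate 2, where CD37, CD72 and CD47 lost the call and 45.2% of all genes varied, and 8 of 9 without replicate 3, where 56.2% did. Over all genes 2854 varied without replicate 1 in place of 6728. Without replicate 1 the mean level fell from 22.9 to 8.15 CPM for CD22, from 59.97 to 23.5 CPM for CD52, from 222 to 124 CPM for CD53 and from 28.1 to 16.3 CPM for CD48. With the deposited values every antigen had a higher mean level. It was 1001 CPM for MS4A1, 398 CPM for CD37, 301 CPM for CD53, 109 CPM for CD47, 32.1 CPM for CD22 and 5.46 CPM for CD38. Calls lost with scaling by column totals were MS4A1 for replicate 3 against 1 and against 2, and CD72 for replicate 3 against 2. With the deposited values MS4A1 differed by -0.0065 between replicates 3 and 2 in place of 0.24. This shift was not particular to MS4A1, as every antigen had a lower difference there. CD37 had 1.93 in place of 2.18 and CD53 0.53 in place of 0.78. The deposited values scale replicate 2 by 1.08e+06 and replicate 3 by 1.05e+06, where the TMM-scaled library sizes were 1.59e+06 and 1.30e+06. The log2 ratio per kb of CD37 to CD53 turned to 0.44 with no length correction and 0.50 with median transcript length, that of CD22 to CD72 to 0.31 with median transcript length, and that of CD47 to CD48 ran from -0.47 to 1.42 when 1 library was left out, negative without replicate 2. In the shallower libraries CD38, CD22, CD48 and CD72 each had 16 counts or fewer in replicate 2, which limits their precision. No paired analysis was possible because the samples form 1 group.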

Other observations

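TNFRSF13B, the receptor TACI of B cells, was picked out with its values known. It had 117, 759 and 317 CPM in replicates 1, 2 and 3, and was thus highest in the library in which 7 of 9 antigens were lowest. CD5, a surface protein of some B and most T cells and also picked out with its values known, had 87, 1 and 3 counts.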
